A study of Rattus norvegicus with 192 samples.

Results

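The prefrontal cortex of adult rats exposed to ethanol before birth was compared 16 days after an injection of adjuvant or of saline. The arrays were chosen by their titles, with 1 array per animal: 9 rats that received adjuvant and 5 that received saline, 14 of the 192 arrays of the series and 14 of its 87 single cortex arrays. All 14 were adult female Sprague Dawley offspring whose mothers drank a liquid diet that drew 36% of its calories from ethanol, from gestation day 1 to 21. They were weaned on postnatal day 22. At an age of 50 to 65 days the adjuvant rats were injected in the skin at the tail base with complete Freund's adjuvant (0.1 ml, 12 mg/ml), and the saline rats with saline at that site. Where other diets are named, control rats came from mothers on chow and pairfed rats from mothers given an ethanol-free liquid diet in matched amounts, with 9 adjuvant and 5 saline rats each at day 16. The labels do not give the litter or the arthritis score of a rat, so every p-value treats rats as independent.

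Complete Freund's adjuvant carries killed mycobacteria in oil and induces a joint inflammation in rats that resembles arthritis. Systemic inflammation of this kind is known to reach the brain through cytokines acting on vessel walls, through blood-borne white cells and through glucocorticoids released by the adrenal gland. Known responders in brain tissue include acute-phase genes of endothelium and astrocytes, such as Lcn2, and genes induced by the glucocorticoid receptor, such as Sgk1 and Tsc22d3.

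The signal of each probe was background-corrected, normalised over all arrays and put on a log2 scale, so that a difference of 1 is a doubling of the signal. Levels are not compared between genes, because each probe has its own brightness. Between 9398 and 10848 probes were detected on the arrays of adjuvant rats, against 9833 to 10940 on those of saline rats. Probes of neurons (Snap25, Gad1, Slc17a7), astrocytes (Gfap, Aqp4), oligodendrocytes (Mbp, Mog) and microglia (Aif1, P2ry12) were detected on all 14 arrays. Kl, a choroid plexus marker, was detected on none of the 14 arrays, and Ttr, another, on 3 arrays of adjuvant and 1 of saline rats. Mpo, a marker of neutrophil precursors, was also detected on none. In tissue pieces, a change in the number of cells of a type and a change in RNA per cell cannot be told apart. The 14 arrays lay on 8 chips, of which 5 held both an adjuvant and a saline rat and 3 held adjuvant rats only.

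Before the comparison itself, 2 saline rats and the level of blood pigment genes need description. A list of genes known from olfactory bulb neurons was written after the values had been seen. Of its 7 genes on the array, 6 were tested (Cdhr1, Trh, Th, Doc2g, Nmb and Pax6). The mean of the 6 tested probes was 5.70 to 6.45 in adjuvant rats. It was 8.40, 6.48, 7.76, 6.27 and 6.07 in saline rats 1 to 5. Saline rats 1 and 3 thus stood well above the other 12 rats, and ranked 1 and 3 among all 87 cortex arrays, whose median was 5.96. The mean of 5 hemoglobin probes was 9.95 to 10.69 (median 10.11) in adjuvant rats and 10.10, 9.65, 9.98, 9.70 and 9.40 in saline rats 1 to 5. It was on average 0.47 higher in adjuvant rats, and the groups overlapped. With the hemoglobin mean as a covariate 0 probes were called (limma, smallest adjusted p 0.652), and with the olfactory mean 0 were called (smallest adjusted p 0.9998). Genes read singly with these covariates whose sign turned are listed in the closing sections. Some genes named below, among them Per1, Mycn, S100a11 and Cyp11b1, were not read singly in this way for this comparison. Fitted values of genes and gene lists stand beside only some of the values below.

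The cortex array labelled pairfed saline rat 3 went against its label. Over 36 probes whose signal correlated above 0.7 between the tissues of 82 other rats, 83 of 84 cortex arrays were closest to the hippocampus array of their own rat. The exception was this array, at r = 0.14 with its own rat and 0.78 with the rat of ethanol saline rat 5, whose own cortex array stood at 0.81. With 55 and 27 probes it was again closest to that rat. With 6 probes, where only 22 of 84 arrays were closest to their own rat, it was not. It was kept as labelled, and pairfed results are given without it where they moved.

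No probe separated adjuvant from saline rats at an adjusted p below 0.05 among 15250 tested (limma with chip as a block, 0% called), and the smallest adjusted p was 0.9998. At an unadjusted p below 0.05 there were 389 probes, with 1.23% of those tested higher and 1.32% lower. Of all probes, 48.9% were higher and 51.1% lower. The standard error of a difference had a median of 0.216 on the log2 scale. In simulated arrays with the real means and spreads, 67 probes were changed at each fold in every draw, with noise independent between probes. There 20.3% of 1.5-fold changes were recovered, 78.2% of those of 2-fold and 98.7% of those of 3-fold, so small changes could be missed at this sample size. Many changed probes at once ease the adjusted threshold, so the recovery of a single changed probe was not measured. The groups did not overlap at all for 5 probes that were higher in adjuvant rats (0.0328%) and 5 that were lower (0.0328%). The named genes below are those with the smallest p-values, given as values and not as changes.

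Among the genes with higher signal in adjuvant rats, Acer2, which encodes a Golgi ceramidase that releases sphingosine, had the largest difference of the 15 named. Its log2 signal was 7.83 at the lowest, 8.32 at the median and 9.35 at the highest in adjuvant rats, against 7.15, 7.33, 8.68, 7.08 and 6.79 in saline rats 1 to 5. All saline rats but rat 3 lay below every adjuvant rat. The fitted difference was 1.03 ± 0.33 (SE), a 2.04-fold higher signal, with an unadjusted limma p of 0.00269. It was positive in 4 of the 5 chips that held both groups, and negative on the chip of saline rat 3. Tsc22d3 encodes the glucocorticoid-induced leucine zipper, a mediator of the anti-inflammatory action of glucocorticoids. Its signal ran 10.28 to 10.90 with a median of 10.63 in adjuvant rats, against 9.43, 9.99, 10.50, 10.11 and 9.81 in saline rats. Saline rat 3 was again the highest of its group and the groups overlapped through it alone. The difference was 0.59 ± 0.21 (SE) and was positive in 5 of 5 chips. Sult1a1, a phenol sulfotransferase that glucocorticoids induce, was 0.75 ± 0.29 higher, with 6.79 to 8.79 (median 7.52) in adjuvant rats and 6.69, 6.92, 7.53, 7.12 and 6.84 in saline rats.

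Gp5, a subunit of the platelet receptor for von Willebrand factor, was the 1 named gene among the 15 highest whose groups did not overlap. Its signal was 5.27, 5.45 and 6.41 at the lowest, median and highest of the adjuvant rats, against 4.59, 5.21, 4.72, 5.07 and 4.73 in saline rats. Its probe is dim: it was detected on 5 of 9 adjuvant arrays and on 0 of 5 saline arrays, so only a bound of at least 1.10-fold can be given. Also detected on no saline array were Tgfbrap1, Alkbh8, Pex11g, Tbxas1 and Ttc38, with detection on 5, 6, 5, 4 and 2 of 9 adjuvant arrays. The bound was at least 1.05-fold for Tgfbrap1, an adaptor of TGF-beta receptors, and at least 1.17-fold for Alkbh8, a tRNA methyltransferase. For Pex11g, Tbxas1 and Ttc38 the dim signal allowed no fold.

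Olig1, a transcription factor of oligodendrocytes, gave 11.66 to 12.60 (median 11.90) in adjuvant rats and 10.87, 11.18, 11.44, 11.79 and 11.83 in saline rats. Saline rats 4 and 5 lay within the adjuvant range, and the difference was 0.53 ± 0.20. Slc16a11, a monocarboxylate transporter, gave 6.24 to 7.13 (median 6.71) against 5.53, 5.41, 6.16, 6.30 and 5.32, and only saline rat 4 reached the adjuvant range. The remaining members of the 15 were Stxbp5 (0.88 ± 0.25), a brake on vesicle fusion, Susd4 (0.74 ± 0.26), an inhibitor of complement, Fibin (0.66 ± 0.23) and the ribosomal protein gene Rpl27 (0.55 ± 0.21). None of the 15 had an adjusted p below 0.9998.

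**Figure D1:**
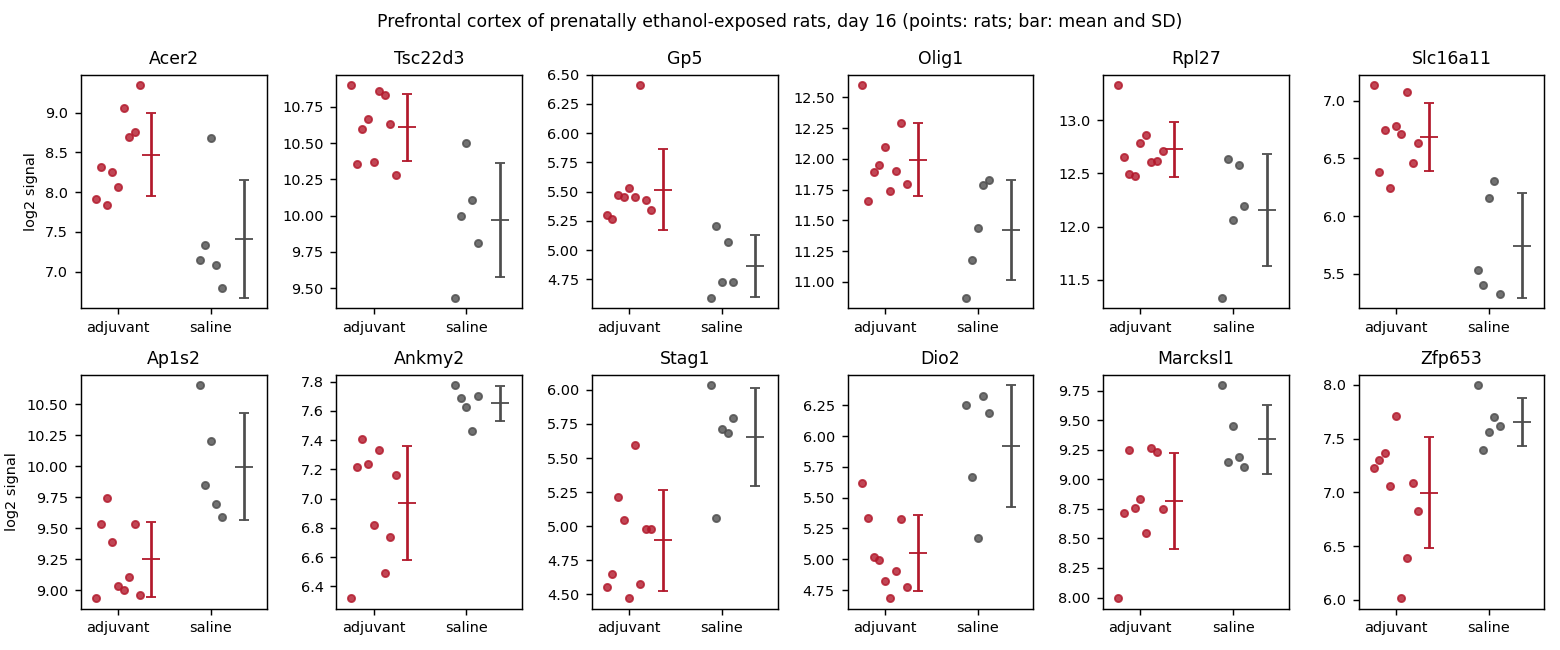
Log2 signal in prefrontal cortex (vertical axes, 1 panel per gene, axes not starting at 0) of the 9 adjuvant rats at left and the 5 saline rats at right of each panel, with points for rats and bars for the mean and SD. The upper 6 genes are among those higher in adjuvant rats and the lower 6 among those lower, and of the 12 only Gp5 and Ankmy2 have groups that do not overlap.

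Among the genes with lower signal in adjuvant rats, Ankmy2, known in mice as a regulator of adenylyl cyclase traffic to cilia, had groups that did not overlap. Its signal was 6.32 to 7.41 (median 7.16) in adjuvant rats and 7.77, 7.69, 7.62, 7.46 and 7.70 in saline rats, a difference of -0.73 ± 0.23. Ap1s2, a subunit of the clathrin adaptor that sorts vesicle cargo, gave 8.94 to 9.74 (median 9.11) against 10.65, 9.85, 10.20, 9.69 and 9.59. Of the adjuvant rats 8 of 9 lay below all saline rats, and the difference was -0.64 ± 0.18. Stag1, a cohesin subunit, gave 4.47 to 5.60 (median 4.98) against 6.03, 5.06, 5.71, 5.68 and 5.79, a difference of -0.82 ± 0.23, and was detected on 1 adjuvant array and 4 saline arrays. All 5 chips with both groups gave a lower value in the adjuvant rat for Ankmy2, Ap1s2 and Stag1.

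Dio2 encodes the deiodinase that makes active thyroid hormone, in the brain mainly in astrocytes. Its signal was 4.68 to 5.62 (median 4.99) in adjuvant rats and 6.25, 5.66, 5.17, 6.32 and 6.19 in saline rats. Only saline rat 3 lay within the adjuvant range, and the difference was -0.75 ± 0.25 with a p of 0.00335 (limma, unadjusted). The adjuvant values of Dio2 were about as dim as those of Stag1, so the size of its difference is uncertain. Zfp653, Rbms2, Axl, Marcksl1, Isca2, Ripor2, Svs3b and Tubgcp2 had differences between -0.79 ± 0.26 for Ripor2 and -0.48 ± 0.18 for Isca2, an iron-sulfur cluster assembly gene. Axl, a receptor tyrosine kinase of microglia and macrophages, had detection on 3 adjuvant arrays and 4 saline arrays.

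The largest negative differences belonged to Cdhr1 and Trh, which are on the olfactory bulb list written after the values had been seen. Cdhr1, a cadherin of mitral cells, gave 6.18 to 8.06 (median 7.30) in adjuvant rats and 10.99, 8.19, 10.25, 7.40 and 8.05 in saline rats, a difference of -1.67 ± 0.52. Trh, the precursor of thyrotropin-releasing hormone, gave 4.87 to 6.26 (median 5.26) against 8.95, 6.43, 8.26, 5.61 and 5.59, a difference of -1.54 ± 0.45. Saline rats 1 and 3 were far above the other 12 rats for both genes. Th, the dopamine-synthesis enzyme of periglomerular cells, had -0.83 ± 0.31, with 7.76 and 6.90 in saline rats 1 and 3 and at most 6.17 elsewhere. Since the list followed the values, its counts are descriptive only. All 6 genes tested on it were lower in adjuvant rats and 4 had an unadjusted limma p below 0.05. Without saline rats 1 and 3 their median difference was -0.24, against -0.76 with them, and 0 of 6 had a p below 0.05. The same list had a median of -0.20 in control rats, 0.17 in pairfed rats and 0.04 in ethanol rats at day 39.

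**Figure D2:**
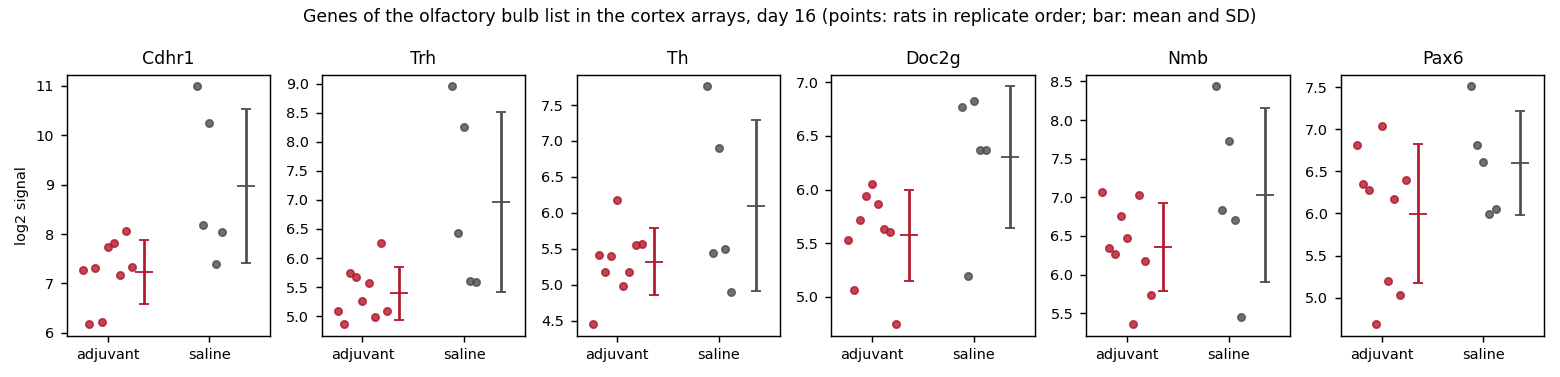
Log2 signal in prefrontal cortex (vertical axes, not starting at 0) of 6 genes known from olfactory bulb neurons, adjuvant rats 1 to 9 at left and saline rats 1 to 5 at right in replicate order, with bars for mean and SD. For Cdhr1, Trh and Th the first and the third saline rat lie above all other rats.

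The leading genes of the ethanol rats were then read in rats of the other diets, whose own differences were not used to choose them. Of the 15 genes higher in ethanol rats, 5 were also higher in control rats and 8 in pairfed rats, with medians of -0.08 and 0.08 (0.01 without pairfed saline array 3) against 0.67 in ethanol rats, where they were chosen. Of all probes, 51.4% were higher in control and 50.9% in pairfed rats. Of the 15 lower genes, 5 were lower in control rats and 7 in pairfed rats, with medians of 0.04 and 0.02 (0.03 without that array) against -0.64, where 48.6% and 49.1% of all probes were lower. Acer2 (1.56 in control and 0.88 in pairfed rats) and Sult1a1 (0.72 and 0.61, or 0.34 without that array) were higher in every diet. Ap1s2, Susd4, Rpl27 and Tubgcp2 had opposite signs in ethanol and control rats, with -0.64 against 0.46, 0.74 against -0.62, 0.55 against -0.60 and -0.63 against 0.35.

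The reverse reading took genes from the other diets. In the mean of control and pairfed rats, 21 named genes were called (23 of 15250 probes at a limma adjusted p below 0.05, 0.151%), and 19 of them were higher after adjuvant. In ethanol rats 18 of the 21 were higher, 20 had the direction of the other diets, and 6 had an unadjusted p below 0.05 (limma). Of all probes in ethanol rats, 48.9% were higher and 2.55% had such a p. Their median difference was 0.44 in ethanol rats, against 0.96 in the control and pairfed rats that had selected them, a selection that enlarges the second value. The difference was nearer to 0 or of the opposite sign in ethanol rats for 21 of 21. A limma test of that difference between diets gave an unadjusted p below 0.05 for 9 of the 21, against 3.57% of all probes. The adjusted p was below 0.05 for none. Both counts are enlarged by the selection, because the test subtracts the values that selected the genes, so they do not measure a weaker response. Without pairfed saline array 3, 13 named genes were called, 12 of them among the 21, and all 13 were higher in ethanol rats with a median of 0.49. Without saline rat 5 the median of the 21 in ethanol rats was 0.27, and without saline rats 1 and 3 it was 0.51. The mean over all 3 diets, which contains the ethanol rats, called 18 named genes (20 probes, 0.131%), and all 18 were higher in ethanol rats with a median of 0.52.

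S100a8, a calcium-binding protein of neutrophils and monocytes, had the largest response in the other diets (1.96 in control and 2.20 in pairfed rats). In ethanol rats its signal was 5.37, 5.73, 6.52, 4.84, 5.50, 6.99, 6.71, 7.99 and 8.15 in adjuvant rats 1 to 9, against 4.87, 4.66, 7.08, 5.68 and 5.33 in saline rats 1 to 5. Adjuvant rats 8 and 9 alone lay above saline rat 3, and the groups overlapped. The difference was 0.91 ± 0.38 (95% interval 0.15 to 1.67), and the probe was detected on 7 adjuvant and 2 saline arrays. Lcn2, a secreted iron-scavenging protein of the acute phase, gave 4.93 to 7.65 (median 5.70) against 5.54, 4.70, 5.72, 4.72 and 4.96, a difference of 0.93 ± 0.37. It was 0.85 in control and 2.00 in pairfed rats. Lrg1, a glycoprotein of activated endothelium, was 0.63 ± 0.26 higher and positive in 5 of 5 chips.

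Vwf, the clotting factor that endothelium stores, gave 8.09 to 9.90 (median 8.73) in adjuvant rats and 8.46, 8.06, 9.03, 7.78 and 8.51 in saline rats, a difference of 0.62 ± 0.24. Upp1, a uridine phosphorylase, was 0.51 ± 0.23 higher. Tmem252 (0.54 ± 0.30) was 7.07 in saline rat 3 and 4.81 to 5.20 in the other saline rats. Mgp, Gpd1, Zfp189 and Hbb-b1 had differences of 0.44 to 0.50 with unadjusted limma p-values of 0.0664 to 0.0825. With the hemoglobin covariate Hbb-b1 was -0.02. Values near 0 belonged to Plac8 (-0.04 ± 0.30), a gene of white blood cells, Napsa (0.02 ± 0.22), Rnf103 (0.04 ± 0.20), an ubiquitin ligase, and Ccl5 (0.10 ± 0.34), a chemokine of T cells. The cold-inducible RNA-binding proteins Rbm3 and Cirbp, both lower in the other diets (-0.84 and -0.53), had -0.16 ± 0.27 and -0.07 ± 0.17 in ethanol rats.

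**Figure D3:**
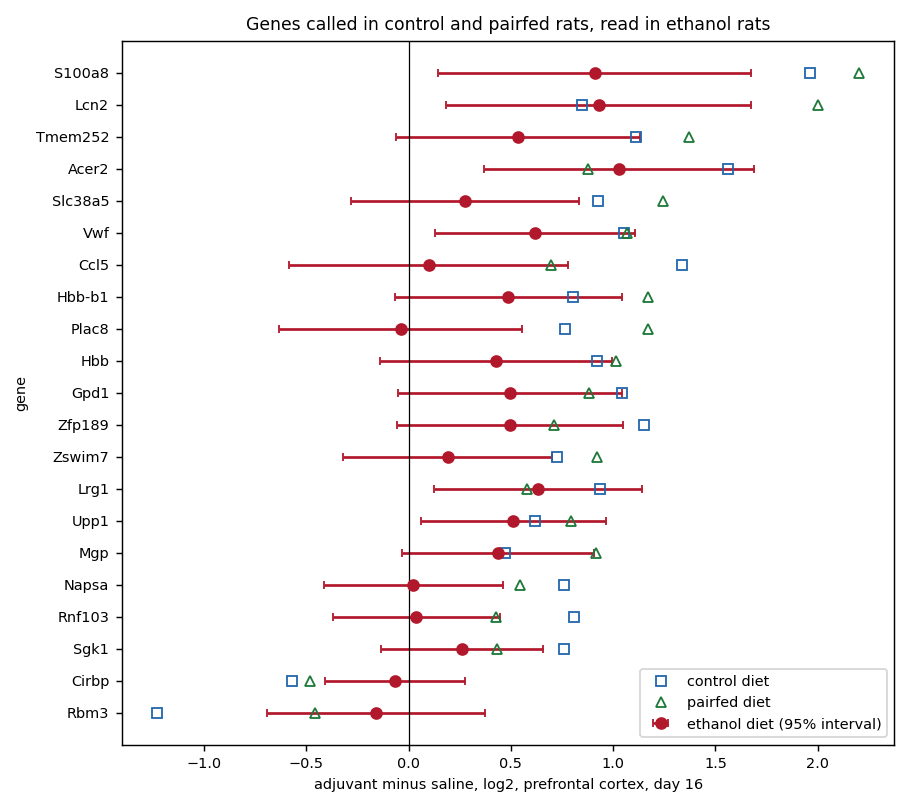
Adjuvant minus saline log2 difference in prefrontal cortex at day 16 (horizontal axis) for the 21 genes called in control and pairfed rats (rows), with filled circles and 95% intervals for ethanol rats and open symbols for control and pairfed rats. The intervals of 6 genes lie wholly above 0 in ethanol rats, and S100a8 is 0.91 there against 1.96 and 2.20.

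The number of these genes that were high differed from rat to rat. Of the 19 genes that rose in the other diets, adjuvant rats had 8, 16, 18, 10, 10, 17, 12, 16 and 15 above the saline mean, in the order of rats 1 to 9. Saline rats 1 to 5 had 10, 7, 16, 7 and 5 above it. Adjuvant rat 1 thus had fewer than saline rat 1, and saline rat 3 had as many as adjuvant rats 2 and 8.

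Gene groups were described by the same counts, beside 4887 of 10168 named genes (48.1%) higher and a median of -0.01 over all of them. Of 22 glucocorticoid-induced genes tested, 16 were higher, the median difference was 0.21, and 3 higher (Tsc22d3, Sult1a1 and Nfkbia) and 1 lower (Lyve1) had an unadjusted p below 0.05. Nfkbia encodes the inhibitor that holds NF-kappaB in the cytoplasm, and gave 9.18 to 10.69 (median 9.85) in adjuvant rats against 9.19, 9.04, 10.11, 9.34 and 8.99 in saline rats, a difference of 0.53 ± 0.23. Sgk1, a kinase of the glucocorticoid response, was 0.26 ± 0.20, against 0.76 in control and 0.43 in pairfed rats. The clock gene Per1, also induced by glucocorticoids, was -0.07 ± 0.21 in ethanol rats and 1.12 in control rats, where it was 1 of 5 called probes (0.0328%). In pairfed rats Per1 was 0.03, or -0.02 without pairfed saline array 3, so a value near 0 was not particular to ethanol rats. The list's median was 0.33 in control and 0.28 in pairfed rats. Without saline rats 1 and 3, 19 of the 22 were higher and the median was 0.24.

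Acute-phase genes were higher in 7 of 9, with a median of 0.22, and Lcn2 and Lrg1 had the smallest p-values. The median was 0.16 with 5 of 9 higher without saline rat 1, and 0.40 with 7 of 9 without saline rat 3. Spp1, the secreted phosphoprotein osteopontin, was -1.07 ± 0.52, with 9.65 and 8.90 in saline rats 1 and 3, above all other rats. Without those 2 saline rats it was 0.58, and with the olfactory covariate 0.55. Hemoglobin and erythroid genes were higher in 7 of 8 with a median of 0.34, or in 5 of 8 with 0.13 once their own mean was a covariate. Hba-a1, an alpha-globin gene, gave 12.78 to 14.07 (median 13.42) in adjuvant rats and 13.41, 12.61, 12.98, 12.86 and 12.79 in saline rats, a difference of 0.53 ± 0.25. Probes of globin paralogs may share signal, so the single genes are uncertain. Of 9 neutrophil and monocyte genes 5 were higher, with a median close to 0, and S100a8 was the 1 member with an unadjusted p below 0.05.

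Endothelial genes were higher in 18 of 24 with a median of 0.10, including the junction protein gene Esam (0.66 ± 0.25). Without saline rat 1 the count was 11 of 24 and the median -0.01, without saline rat 3 the median was 0.19, and with the hemoglobin covariate 14 of 24 were higher with a median of 0.02. Oligodendrocyte and myelin genes were higher in 20 of 27 with a median of 0.16, against -0.06 in control and 0.16 in pairfed rats. Mal, a proteolipid of myelin, gave 11.87 to 12.91 (median 12.35) in adjuvant rats and 11.64, 12.09, 11.89, 11.94 and 11.52 in saline rats, a difference of 0.45 ± 0.22. Cryab, a small heat shock protein of oligodendrocytes and astrocytes, was 0.63 ± 0.25 higher, with 5 of 5 chips positive, and 9 of 14 heat shock genes were higher. Genes of endoplasmic reticulum stress were higher in 15 of 22, led by Herpud1 (0.52 ± 0.22). The count was 11 of 22 without saline rats 1 and 3, and likewise 11 of 22 with the olfactory covariate. Astrocyte genes were higher in 12 of 19 with a median of 0.04, and without those 2 rats in 8 of 19 with -0.02.

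Antigen presentation genes were higher in 7 of 23, with a median of -0.10, against 16 of 23 and 0.14 in control rats and 18 of 23 and 0.20 in pairfed rats (0.31 without pairfed saline array 3). In ethanol rats it was 10 of 23 and -0.04 without saline rat 1, and 9 of 23 and -0.02 with the olfactory covariate. RT1-CE7, a class I histocompatibility gene, gave 5.70 to 6.97 (median 6.44) in adjuvant rats and 7.39, 6.78, 6.63, 6.90 and 6.98 in saline rats, a difference of -0.64 ± 0.28. RT1-T24-4 (-0.75 ± 0.46) and RT1-S3 (-0.41 ± 0.26) are close relatives of it whose probes may cross-hybridise. Interferon-induced genes were higher in 6 of 18 with a median of -0.07, led by Ifi27 (-0.42 ± 0.28) and Mx1 (-0.42 ± 0.28), against medians of 0.12 and 0.22 in control and pairfed rats. The pairfed median was 0.12 without pairfed saline array 3. In ethanol rats 10 of 18 were higher without saline rat 3 (median 0.03), and likewise 10 of 18 with the olfactory covariate (0.05). Mx1 was -0.18 without saline rat 1 and Ifi27 -0.27 without saline rat 4. Of 18 genes of NF-kappaB and cytokine feedback 10 were higher, with a median of 0.02. Complement genes were higher in 3 of 11, and without saline rat 1 in 7 of 11. Cytokines, chemokines and their receptors were higher in 10 of 23. Of 23 microglial genes 9 were higher, and 12 without saline rat 3. Cx3cr1, the fractalkine receptor, was 0.52 ± 0.23, while the protease gene Ctss was -0.40 ± 0.19 and Lyve1, a marker of border macrophages, was -0.55 ± 0.22. For Lyve1, 8 of 9 adjuvant rats lay below all saline rats.

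Of 21 inhibitory neuron genes 7 were higher, with a median of -0.19, or 9 with a median close to 0 with the olfactory covariate. Pvalb, the calcium buffer of fast-spiking interneurons, gave 8.71 to 9.41 (median 9.11) in adjuvant rats and 7.75, 8.66, 8.95, 8.70 and 8.89 in saline rats, a difference of 0.52 ± 0.20. It was 0.29 without saline rat 1, the lowest of its group. Htr3a, the serotonin-gated channel of another interneuron class, had -0.62 ± 0.26, and Gad1, which makes GABA, had -0.39 ± 0.21. Without saline rats 1 and 3 the list's median was -0.06, and saline rat 1 was the highest for Gad1 at 12.92. Excitatory neuron genes were higher in 8 of 17. Immediate early genes were higher in 14 of 28, among which Nr4a2 was 0.80 ± 0.39. Mitochondrial (35 of 68) and ribosomal (35 of 63) genes were near the share of all genes.

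**Figure D4:**
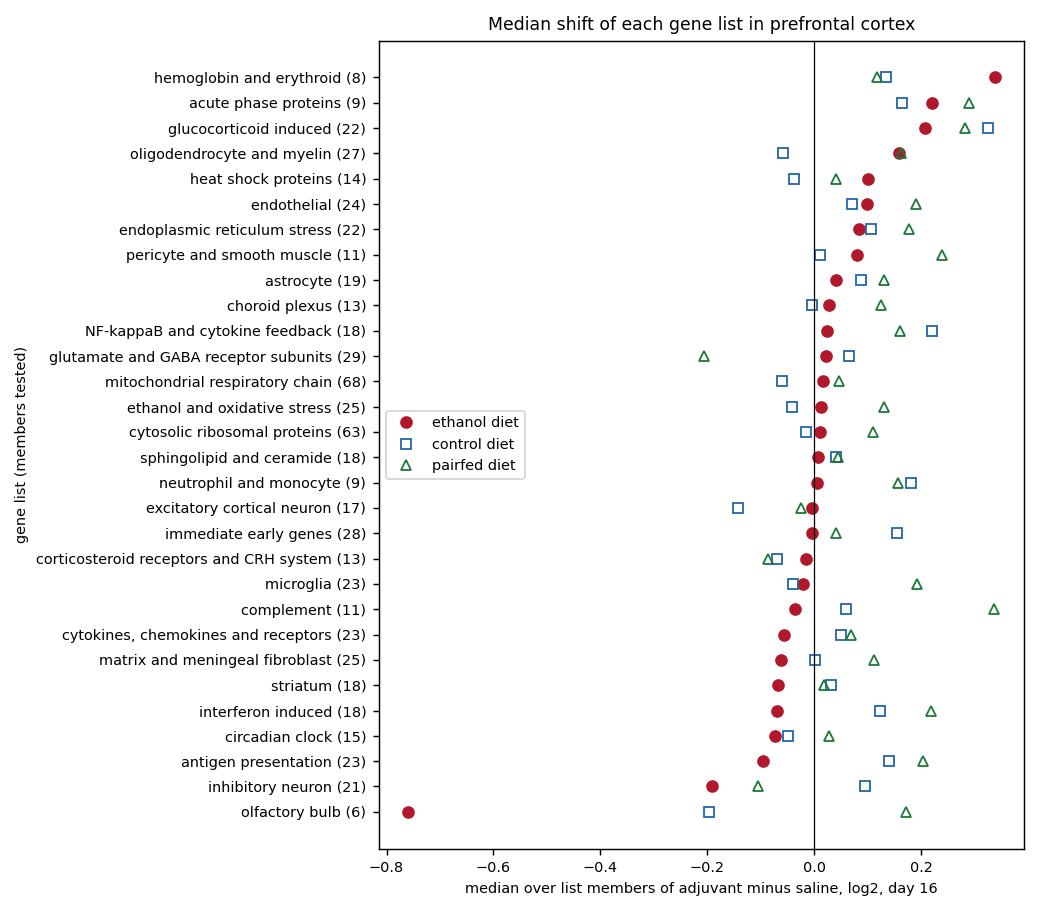
Median over the tested members of each gene list (rows, number tested in brackets) of the adjuvant minus saline log2 difference at day 16 (horizontal axis), filled circles for ethanol rats and open symbols for control and pairfed rats. Hemoglobin (0.34), acute-phase (0.22) and glucocorticoid (0.21) lists lie furthest right in ethanol rats, and the olfactory bulb list (-0.76) furthest left.

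The adjuvant response of ethanol rats was set against that of control rats by an interaction contrast over 15250 probes. No probe was called (limma, smallest adjusted p 0.4931), and 812 had an unadjusted p below 0.05, 375 higher (2.46%) and 437 lower (2.87%). The smallest p among named genes belonged to Ap1s2, whose response differed by -1.10 ± 0.26, followed by Tex10 (-1.48 ± 0.36), Plekha4 (-1.65 ± 0.41) and Per1 (-1.20 ± 0.30). Per1 had 8.20 as the median of ethanol adjuvant rats, against 8.95, 8.14, 8.79, 8.65 and 7.86 in ethanol saline rats. Its response in pairfed rats was 0.03. Mpeg1, a pore-forming protein of macrophages, differed by -1.27 ± 0.35. In the other direction were Rpl27 (1.15 ± 0.30), Mettl26 (0.98 ± 0.26), Susd4 (1.35 ± 0.37), Alkbh8 (1.12 ± 0.30) and Wdr73 (0.91 ± 0.26). Against pairfed rats no probe was called either (smallest adjusted p 0.9999, 211 higher, 1.38%, and 261 lower, 1.71%, at an unadjusted p below 0.05, or 209 and 229 without pairfed saline array 3), and the smallest p belonged to Eml2 (0.97 ± 0.24). Against the mean of both diets 239 probes were higher (1.57%) and 305 lower (2%) at an unadjusted p below 0.05, and none was called (limma, smallest adjusted p 0.9998). These contrasts had a median standard error of 0.309 against control rats, above the 0.216 of the comparison within ethanol rats.

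At day 39, 9 adjuvant and 6 saline ethanol rats were compared in the same fit. No probe was called (limma, smallest adjusted p 0.0838). At an unadjusted p below 0.05 there were 1310 probes, 701 higher (4.6%) and 609 lower (3.99%). At day 16 the same fit gave 389 (2.55%), and a fit of the 2 day 16 groups alone gave 682 (4.47%). Mycn, a transcription factor gene, had the smallest p at day 39, -0.96 ± 0.20, and its difference at day 16 was 0.34 ± 0.21. The change between days was 1.30 ± 0.29 with an adjusted p of 0.349. Dio2 was lower at both days, with dim adjuvant values that leave the size of the differences uncertain. At day 39 its signal was 4.43 to 5.88 (median 5.56) in adjuvant rats and 5.75 to 8.19 (median 5.99) in saline rats. The difference was -0.95 ± 0.23 with a limma adjusted p of 0.171. The days used different rats, so the lower Dio2 values came from separate animals. S100a11, a calcium-binding protein gene, was 1.05 ± 0.24 higher at day 39, against 0.67 ± 0.26 at day 16. S100a8 was 0.54 and Acer2 0.17 at day 39. Of the 15 higher genes of day 16, 6 were higher at day 39, where 51.5% of all probes were higher, and of the 15 lower genes 11 were lower, where 48.5% were. No probe was called for the difference between days (limma, smallest adjusted p 0.349), with 389 higher (2.55%) and 416 lower (2.73%) at an unadjusted p below 0.05.

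The hippocampus of the same 14 rats gave 1 call among 15320 probes (0.00653%). Cyp11b1, the adrenal enzyme of the last step of corticosterone synthesis, fell by 1.15 ± 0.19 (SE) with a limma adjusted p of 0.00118. Its hippocampal signal was 4.60 to 5.85 (median 5.06) in adjuvant rats and 6.80, 5.85, 6.23, 6.05 and 6.06 in saline rats, so the groups met only at 5.85. Its probe was detected in the hippocampus of 3 adjuvant rats and of all 5 saline rats. In the cortex its signal was 8.65 to 9.29 (median 9.11) against 9.13, 9.17, 8.49, 8.69 and 9.21, a difference of 0.24 ± 0.17. The difference between tissues within rats was 1.39 ± 0.26 with a limma adjusted p of 0.0109, 1 call in 14441 probes (0.00692%). Both calls were lost when saline rat 1 was left out, and the call between tissues also without saline rat 3 or without saline rat 4. In the same hippocampus comparison choroid plexus markers were higher in 3 of 13 with a median of -0.72, against 8 of 13 and 0.03 in the cortex, and none of them was called. Ttr, which encodes the thyroid hormone carrier of the choroid plexus, gave 8.49 at the lowest and 10.05 at the median in the hippocampus of adjuvant rats and 14.17, 12.23, 11.82, 13.42 and 13.71 in that of saline rats, a difference of -2.29 with overlapping groups. F5 (-2.38), Aqp1 (-1.30) and Ace (-1.05) were also lower. The part of choroid plexus content in the Cyp11b1 values was not tested.

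Acer2 was 0.83 higher in the hippocampus and 1.03 in the cortex, Gpd1 1.05 and 0.50, and Hbb-b1 0.84 and 0.49. S100a8 was at 7.69 and 8.14 in the hippocampus of adjuvant rats 8 and 9, and at 4.51 to 5.75 in the other 7. The same 2 rats had the highest cortex signal. Over all 9 adjuvant rats Pearson's r of S100a8 between tissues was 0.84 (exact permutation p 0.0289, adjusted over 6 genes). Spearman's rho was 0.82 (adjusted exact permutation p 0.0646). The rats fell into 2 clusters, a split made after the values were seen. Within the 7, Pearson's r was 0.43 (exact permutation p 0.372) and Spearman's rho 0.61 (exact permutation p 0.167). Over all 9 adjuvant rats, 6 genes were examined in all. For the other 5, Pearson's r between tissues was 0.65 for Hbb-b1, 0.67 for Sgk1, 0.55 for Vwf, 0.53 for Lcn2 and 0.47 for Acer2. None of these 5 had an adjusted exact permutation p below 0.127. Spearman's rho was 0.58, 0.42, 0.30, 0.35 and 0.62 in that order, with adjusted exact permutation p-values of at least 0.216. Without the 2 rats farthest from the median cortex signal, r was 0.87, 0.57, 0.72, -0.31 and 0.77, so the relation for Lcn2 rested on those rats. For S100a8 the same kind of removal gave an r of 0.82, and it kept adjuvant rat 8.

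**Figure D5:**
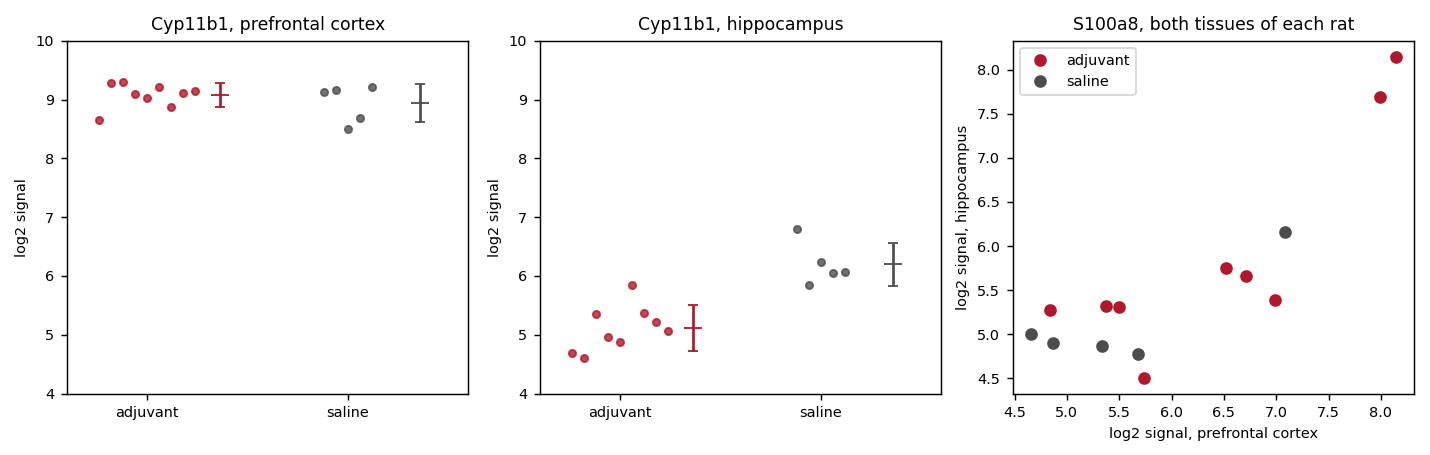
Cyp11b1 log2 signal in prefrontal cortex (left) and hippocampus (middle), adjuvant rats left of saline rats, with bars for mean and SD, and S100a8 log2 signal in both tissues of each rat (right; cortex on the horizontal axis, hippocampus on the vertical axis). In the hippocampus all but 1 adjuvant rat lie below every saline rat for Cyp11b1, and 2 adjuvant rats are high for S100a8 in both tissues.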

How the data were processed

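Per the file headers, the authors deposited a non-normalized table with a value and a detection p-value for each probe and array. Its values, 1 per probe, were read as log2 signal from their range. The authors also deposited a log2 table, normalised by a method not given in the sources used here, which served as an alternative. The signal was corrected with normexp (limma 3.58.1, R 4.3.3; offset 16), quantile-normalised over 192 arrays and returned to log2, so folds of dim probes are understated. Tested probes were detected (p below 0.05) on at least 5 cortex arrays. limma fitted the 12 cortex groups (87 arrays) together, with chip as a block and 1 common estimate of the spread per probe, with Benjamini-Hochberg adjustment over all probes. Differences between tissues used cortex minus hippocampus of each rat. Repeat hybridizations were left out. Fits without pairfed saline array 3 for pairfed values were added after seeing the data. Of 22502 probes, 13787 have 1 gene symbol, 8715 none and 0 several. The number of arrays limits the precision. On simulated data the fit made 5.8 false calls per draw on average, beside 67 changed probes at each fold.

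The text names the 15 higher and 15 lower named probes of smallest p, genes called over 3 diets, up to 3 genes of smallest p from each of 29 lists, and 5 genes per direction for differences between diets, days and tissues. Genes called in control and pairfed rats, olfactory bulb genes, and genes repeated across days and tissues were added after their values were seen. The members and lists were chosen with earlier results of these data known.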

Additional observations from a re-analysis of the deposited data

Results flagged for a closer look

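Single rats stood apart from their own group in 11 of 162 pairs of gene and group examined (6.79% of pairs, over 81 genes), where chance sets apart about 1 in 20. Among adjuvant rats, rat 7 was high for Gp5 (6.41, next rat 5.53) and low for Htr3a (4.95, next 6.29) and Nr4a2 (5.48, next 6.52). Adjuvant rat 1 was high for Rpl27 (13.33) and low for RT1-T24-4 (5.13), and adjuvant rat 2 was low for Rbms2 (6.503). Among saline rats, rat 3 was high for Acer2 (8.68, next 7.33) and Tmem252 (7.07, next 5.20), both of which had higher signal in adjuvant rats. Saline rat 1 was low for Cirbp (8.41) and Pvalb (7.75), and saline rat 2 was low for Doc2g (5.19).

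The adjuvant response of Cyp11b1 differed between tissues of the same rats by 1.39, cortex minus hippocampus (limma adjusted p 0.0109). For 5 of the 81 genes examined, adjuvant rats of 2 diets lay on opposite sides of the mean of their own saline rats, without exception. No difference in response between diets passed adjustment (limma). Against control rats these were Ap1s2 (-0.64 in ethanol, 0.46 in control rats), Rpl27 (0.55 and -0.60), Susd4 (0.74 and -0.62) and Tubgcp2 (-0.63 and 0.35). Against pairfed rats it was Pvalb (0.52 in ethanol, -0.39 in pairfed rats). The share of all probes with such a pattern was not counted. Ap1s2, Rpl27, Susd4 and Tubgcp2 had been chosen for their small p in ethanol rats. Their ethanol side was therefore largely set by that choice, and the count is descriptive only.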

How the results depend on the processing

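The comparison of adjuvant with saline ethanol rats called 0 probes under each of 28 alternatives (limma). Probes with an unadjusted p below 0.05 numbered 267 to 442 when 1 rat was left out, and 231 without saline rats 1 and 3. There were 211 with detection required on at least 50% of arrays and 595 with no filter on dim probes. Hemoglobin as a covariate gave 482. With the 14 arrays alone there were 682, and the smallest limma adjusted p was 0.260, against 0.9998 in the main fit. The contrast with control rats gave 1 called probe with no filter on dim probes, against 0. The Cyp11b1 call in hippocampus was lost (0 called) with no background correction, the stricter filter or the groups compared alone, and calls ran from 0 to 1 when 1 rat was left out. The call between tissues was lost (0 called) under those 3 settings, with the authors' values, an offset of 50 or no chip block, and calls ran from 0 to 1 when 1 rat was left out. Why was not tested.

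Signs of small differences turned for some genes. Napsa was -0.00370 with no background correction, -0.00358 in the authors' values, -0.0309 in the groups compared alone, -0.00251 with the replicate block and -0.0384 with the olfactory covariate, and -0.0385 to 0.081 when 1 rat was left out. Ccl5 was -0.0187 with no chip block, -0.0471 with the hemoglobin covariate, and -0.16 to 0.25 when 1 rat was left out. With the hemoglobin covariate Cirbp was 0.0598, Hbb -0.16, Hbb-b1 -0.0223 and Plac8 0.0146. With the olfactory covariate, chosen after seeing the data, Nmb was 0.38, Plac8 0.0281, Rnf103 -0.0224 and Spp1 0.55. Without saline rats 1 and 3, also chosen after seeing the data, Nmb was 0.13, Plac8 0.20, Spp1 0.58 and Th 0.0539. When 1 rat was left out, Plac8 was -0.17 to 0.13 and Rnf103 -0.0375 to 0.12.

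Rats that share a replicate number correlated at 0.115, 0.147, 0.0252, 0.0757 and -0.106 in their deviations, and the labels name no pairing. The replicate block called 0 probes, with 367 at an unadjusted p below 0.05. Without the array labelled pairfed saline rat 3, which was closest to the rat of ethanol saline rat 5, 0 were called and 388 had such a p. Its loss took the probes called in control and pairfed rats to 14, against 23, and left those over 3 diets at 18, against 20. A changed gene of small size could be missed with 9 and 5 rats, and dim probes give bounds only.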
